A study of Arabidopsis thaliana with 90 samples.

Results

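The transcriptional response to red light was compared between 2 Arabidopsis thaliana lines that each relied on phyB as their only functional phytochrome, at 17 °C. PHYB-CFP/abcde expressed a transgenic phyB fused to the cyan fluorescent protein CFP under the PHYB promoter, in seedlings that carried mutant alleles of all 5 phytochrome genes (phyA-201, phyB-1, phyC-1, phyD-1 and phyE-1). aBcde kept its native PHYB gene and carried the same phyA, phyC, phyD and phyE alleles. Both lines are in the Landsberg erecta background, and PHYB-CFP/abcde was a single transgenic line. Whole 4-day-old seedlings formed 4 groups of 3 RNA-seq libraries each: PHYB-CFP/abcde after 24 h of red light, PHYB-CFP/abcde in darkness, aBcde after 24 h of red light and aBcde in darkness. Red light was given at 50 µmol m−2 s−1, and these groups make up 12 of the 90 libraries of the series, chosen by their labels. For comparison, both lines were also read at 27 °C, in darkness and after 24 h, and at 17 °C after 1 h. Other lines, read at 17 °C, expressed PHYD-YFP, a phyD fused to the fluorescent protein YFP, under a strong constitutive promoter. PHYD-YFP/abcde carried the same mutant phytochrome alleles as PHYB-CFP/abcde, and PHYD-YFP/abCde differed from it by a functional phyC. The quantity of interest was the difference between responses, which is the log2 fold change (24 h over dark) of PHYB-CFP/abcde minus that of aBcde. A positive difference belongs to a gene that fell less or rose more in PHYB-CFP/abcde.

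Phytochromes are red light receptors that switch between an inactive and an active form. In darkness, PHYTOCHROME-INTERACTING FACTORS (PIFs) drive genes of elongation growth and keep the seedling etiolated. Active phyB enters the nucleus, triggers the degradation of PIFs and lets the programme of greening begin, and it loses activity by thermal reversion, which is faster in warmth.

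Library totals were 16087535 to 19748267 counts on genes among the 12 libraries, and 5 counts corresponded to 0.311 CPM (counts per 1e+06 counts, scaled by the TMM method throughout) at the smallest total. Of 28775 listed genes, 20695 were tested. A gene was called when the edgeR quasi-likelihood test gave an adjusted p under 0.05 and the change was at least 2-fold. In a principal component analysis of the 12 libraries, the first component took 49.7% of the variance. PHYB-CFP/abcde libraries lay between 26.9 and 31.2 on it after 24 h and between −62.7 and −59.6 in darkness, against 75 to 94 and −57.6 to −51.3 in aBcde libraries. The dark libraries of the lines thus lay closer together on this component than the irradiated ones, and the lines did not overlap in either condition. The second component took 12.7% of the variance and separated the lines in both light conditions. On it all aBcde libraries were positive and all PHYB-CFP/abcde libraries were negative. The dark libraries lay between 35.2 and 41.2 on it in aBcde and between −23.6 and −19.2 in PHYB-CFP/abcde. The samples are labelled as replicates without a statement that they came from separate cultures, so p-values measure only the spread between these samples, which may be technical. Seedlings were ground whole, so fewer cells of a type and less RNA per cell cannot be told apart.

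PHYB transcript was higher in PHYB-CFP/abcde than in aBcde in both light conditions, and the responses of the lines did not differ by the test. PHYB (AT2G18790, chr2:8139756-8144461, TAIR10.1) had 315, 337 and 310.1 CPM in irradiated PHYB-CFP/abcde and 466, 452 and 462 CPM in dark PHYB-CFP/abcde. It had 81.7, 91.7 and 96.5 CPM in irradiated aBcde and 138, 130 and 126 CPM in dark aBcde. No PHYB-CFP/abcde library overlapped an aBcde library. The difference between the lines on the log2 scale was 1.83 ± 0.11 (SE) after 24 h, with an adjusted p of 1.06e-21, and 1.81 ± 0.11 in darkness, with an adjusted p of 3.84e-21 (edgeR). The difference between responses was 0.03 ± 0.15, with an adjusted p of 0.957. Its log2 change in light was −0.52 in PHYB-CFP/abcde and −0.55 in aBcde, under 2-fold in both, and was not called. Gene counts do not separate the transgene's transcript from that of the phyB-1 allele. In PHYD-YFP/abcde, another line of the series with phyB-1 and without PHYB-CFP, PHYB lay between 62 and 70.8 CPM after 24 h and between 82.7 and 85.2 CPM in darkness at 17 °C.

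The level of PHYB was also set side by side at both temperatures. The ratio of mean CPM, PHYB-CFP/abcde over aBcde, was 3.56 after 24 h and 3.5 in darkness at 17 °C, and 4.71 after 24 h and 8.21 in darkness at 27 °C. In dark PHYB-CFP/abcde the mean was 460 ± 7.1 CPM at 17 °C and 1370 ± 50.6 CPM at 27 °C (SD, n = 3 each), whereas in dark aBcde it was 131 ± 6.2 and 167 ± 11.9 CPM. These ratios are a description, since the effect of temperature on the PHYB level was not tested. The 250 bases before the annotated PHYB start are shown because the transgene was built on a PHYB promoter. The stretch is at chr2:8139506-8139755, plus strand, TAIR10.1, and its sequence is from the RefSeq genome. Capitals mark the searched motifs, here 2 copies of the G-box CACGTG, a DNA element that PIFs are known to bind, which begin 146 and 111 bases before the start.
PHYB: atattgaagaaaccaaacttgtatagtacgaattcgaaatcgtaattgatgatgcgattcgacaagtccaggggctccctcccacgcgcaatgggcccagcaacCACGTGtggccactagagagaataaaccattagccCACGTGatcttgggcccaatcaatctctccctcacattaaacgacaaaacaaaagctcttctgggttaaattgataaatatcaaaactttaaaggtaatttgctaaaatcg

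Of the other phytochrome genes, PHYA differed between the lines. PHYA, which encodes the light-labile phytochrome and carries the phyA-201 mutation in both lines, had 422, 429 and 423 CPM in irradiated PHYB-CFP/abcde and 844, 801 and 846 CPM in dark PHYB-CFP/abcde. In aBcde it had 199, 112 and 107 CPM after 24 h and 816, 808 and 772 CPM in darkness. The dark groups were within 0.06 of each other on the log2 scale, and every irradiated PHYB-CFP/abcde library was above every irradiated aBcde library. The log2 fold change of PHYA was −0.97 in PHYB-CFP/abcde, just under the 2-fold threshold, so it was not called. Every irradiated PHYB-CFP/abcde library was nonetheless below every dark one. In aBcde the log2 fold change was −2.52, a called fall. The difference between responses was 1.55 ± 0.20 with an adjusted p of 6.7e-08 (edgeR). PHYC and PHYE differed by 0.14 ± 0.15 and −0.13 ± 0.20 between responses and were not called. PHYD was 15.5, 15.6 and 12.9 CPM in irradiated PHYB-CFP/abcde and 18.9, 44.2 and 16.6 CPM in dark PHYB-CFP/abcde, against 13.4, 11.8 and 13.4 CPM in irradiated aBcde and 107, 17.3 and 16.6 CPM in dark aBcde. Replicate 1 of dark aBcde stood apart from the others of its group, and PHYD fell in aBcde by the test, but the difference of 1.02 ± 0.90 was not called. Lines with PHYD-YFP had 3852 to 19750 CPM of PHYD at 17 °C.

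**Figure D1:**
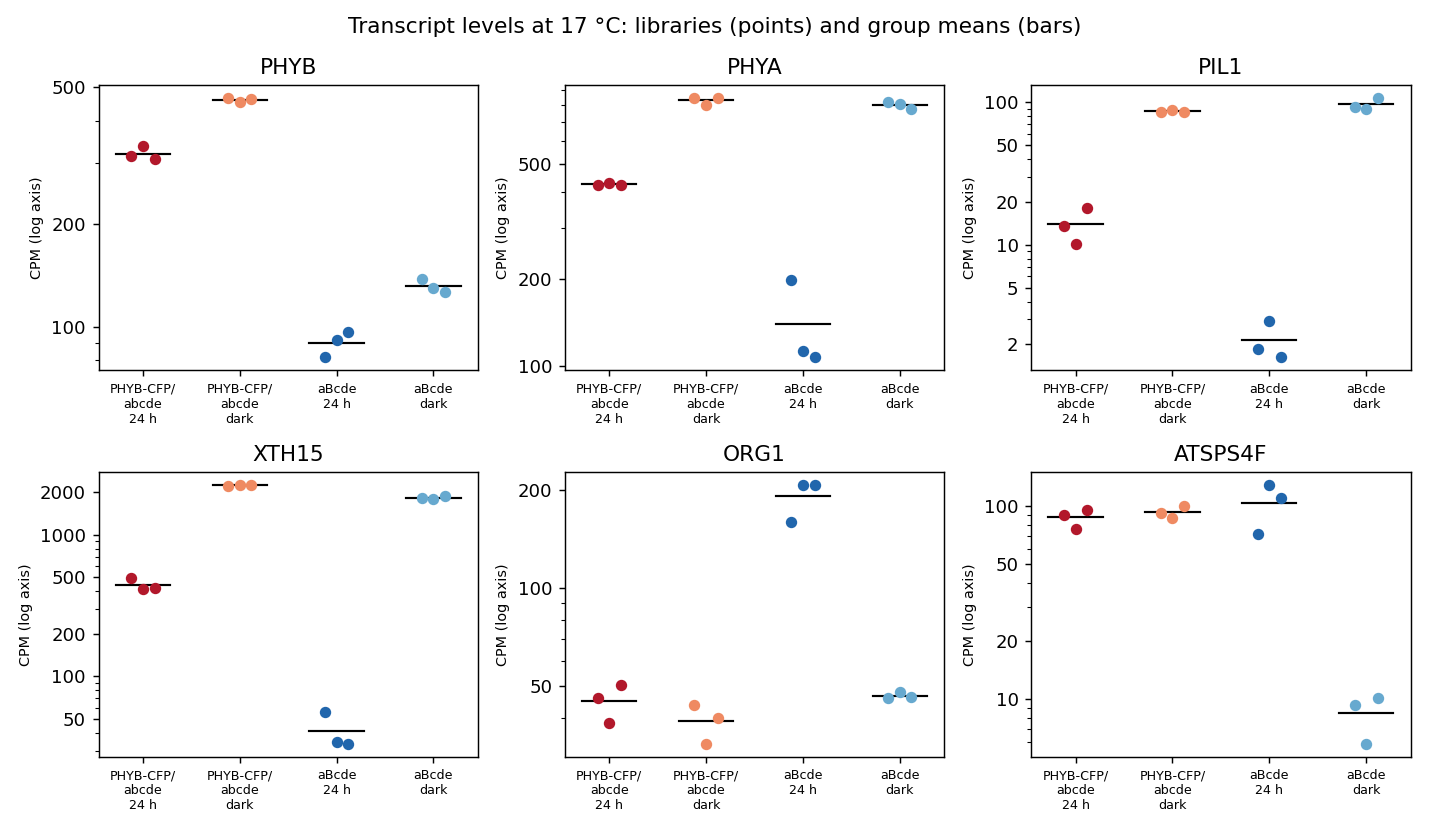
CPM (log axis) of 6 genes in the 12 libraries at 17 °C, with 1 point per library and a bar at each group mean. PHYB was higher in PHYB-CFP/abcde throughout, PHYA, PIL1 and XTH15 were higher in irradiated PHYB-CFP/abcde than in irradiated aBcde, and ORG1 was lower there; ATSPS4F differed between the lines in darkness instead.

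Red light was called to change 1819 genes in PHYB-CFP/abcde (8.79% of those tested) and 3802 in aBcde (18.4%). In PHYB-CFP/abcde 1158 genes rose and 661 fell (5.6% and 3.19%), and in aBcde 2478 rose and 1324 fell (12% and 6.4%). The genes called the same way in both lines numbered 1356, which is 74.5% of the PHYB-CFP/abcde calls and 35.7% of the aBcde calls, and 8 genes were called in opposite directions. The difference between responses itself was called for 499 genes (2.41% of those tested), 230 positive (1.11%) and 269 negative (1.3%). Of the 230, 210 fell in aBcde, and of these 57 also fell in PHYB-CFP/abcde and 153 were not called there. Of the 269, 216 rose in aBcde, and of these 64 also rose in PHYB-CFP/abcde, 144 were not called there and 8 fell. In 426 of the 499 genes (85.4%), these 8 included, the difference thus was opposite in sign to a called aBcde response. Choosing genes by a difference that subtracts the aBcde response favours this pattern.

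These genes differed between the lines more often in the light than in the dark, above all those with a positive difference. After 24 h, 1024 genes were called between the lines (4.95% of those tested), 499 higher (2.41%) and 525 lower (2.54%) in PHYB-CFP/abcde. In darkness 266 were (1.29%), 193 higher (0.933%) and 73 lower (0.353%). Among the 499 genes with a called difference between responses, 303 (60.7%) were called between the lines after 24 h and not in darkness, 36 in darkness and not after 24 h, 13 in both and 147 in neither. Of the 230 positive genes 175 were called after 24 h and not in darkness, and 47 in neither. Of the 269 negative genes 128 were called after 24 h and not in darkness, 34 in darkness only and 100 in neither. Replicate 1 of irradiated aBcde was nearer to the dark libraries than its 2 partners for several genes, as with PHYA. Without that library 832 genes had a called difference, without replicate 2 or 3 of irradiated aBcde 316 or 251 genes did, and without replicate 2 in every group 54.

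**Figure D2:**
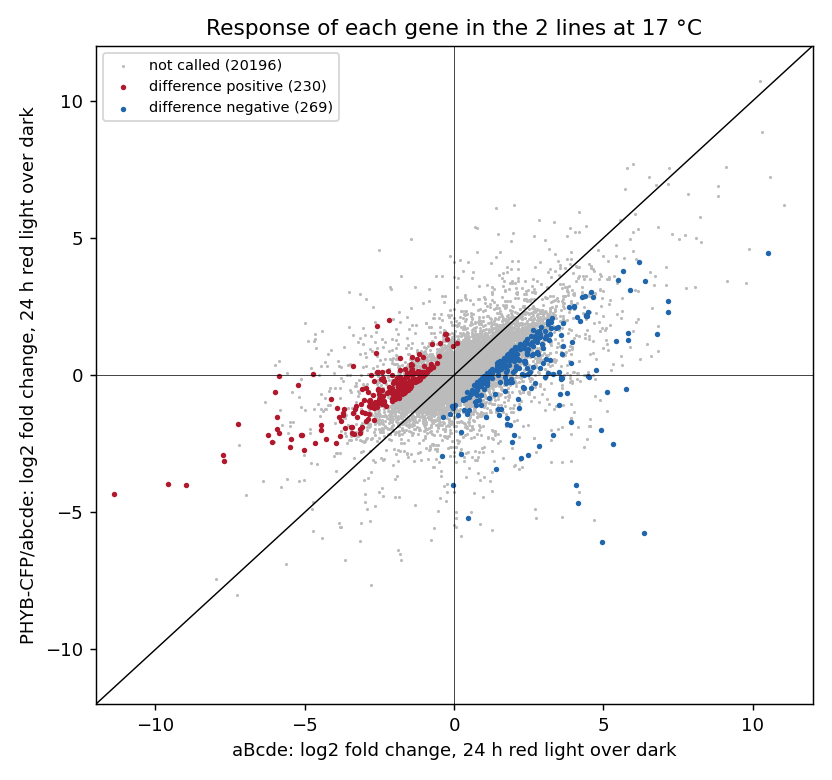
Log2 fold change (24 h over dark) at 17 °C of every tested gene in PHYB-CFP/abcde (vertical) against aBcde (horizontal), with the 230 positive and 269 negative called differences in colour and a line of equal response. Most coloured points are farther from 0 along the aBcde axis than along the PHYB-CFP/abcde axis.

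Genes chosen in another line of the series gave the size of both responses without choosing on either. PHYD-YFP/abCde, whose libraries enter neither response, had 2739 called genes after 24 h at 17 °C (13.2%), of which 1693 rose (8.18%) and 1046 fell (5.05%). The median change of its rising genes was 1.05, 1 and 1.08 on the log2 scale in the 3 irradiated PHYB-CFP/abcde libraries, each against the dark mean of its line. In the 3 irradiated aBcde libraries it was 1.53, 1.76 and 1.75. For its falling genes the medians were −0.81, −0.83 and −0.80 in PHYB-CFP/abcde and −0.997, −1.39 and −1.27 in aBcde. The libraries of the lines did not overlap in either set. At 27 °C the same genes had fitted medians of 1.14 in PHYB-CFP/abcde and 1.3 in aBcde for the rising set, and −0.62 and −0.70 for the falling set. Across all 20695 genes the responses of the lines had a Pearson correlation of 0.623 at 17 °C and 0.737 at 27 °C, a description over genes, which are not independent replicates.

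A list of PIF-induced growth genes covers auxin synthesis and response, brassinosteroid inactivation and cell wall loosening. It was chosen with earlier results of these data known. Of its 29 tested genes (YUC9 was below the count filter), 14 had a called positive difference (48.3%, against 1.11% of all tested genes) and none a negative one. The median difference was 1.12 on the log2 scale, against −0.01 over all tested genes. In PHYB-CFP/abcde 9 of the 29 fell and the median response was −0.88, whereas in aBcde 21 fell, 1 rose and the median response was −2.22. None was called between the lines in darkness, and 18 were higher in PHYB-CFP/abcde after 24 h. The summed level of the list was 1341, 1411 and 1386 CPM in irradiated PHYB-CFP/abcde and 3734, 3797 and 3676 CPM in dark PHYB-CFP/abcde, against 709, 731 and 788 CPM in irradiated aBcde and 3494, 3327 and 3341 CPM in dark aBcde. With 1 library left out at a time the count of 14 was 9 to 12 (9 without replicate 2 of dark aBcde, replicate 3 of dark PHYB-CFP/abcde, or replicate 2 of either irradiated group), and 7 were called without replicate 2 in every group.

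XTH15, a xyloglucan endotransglucosylase/hydrolase that remodels the cell wall, had 492, 418 and 419 CPM in irradiated PHYB-CFP/abcde and 2215, 2259 and 2232 CPM in dark PHYB-CFP/abcde, against 56.3, 34.6 and 33.5 CPM in irradiated aBcde and 1806, 1786 and 1893 CPM in dark aBcde. It fell in both lines, and it fell less in PHYB-CFP/abcde by 3.13 ± 0.37 on the log2 scale, with an adjusted p of 4.87e-09 (edgeR). ST2A, a sulfotransferase of the jasmonate pathway, had 60.3, 76.5 and 58.1 CPM in irradiated PHYB-CFP/abcde and 193, 195 and 180 CPM in dark PHYB-CFP/abcde, against 13.5, 13.4 and 15.6 CPM in irradiated aBcde and 238, 193 and 186 CPM in dark aBcde. Its difference was 2.31 ± 0.27, with an adjusted p of 4.5e-09. YUC8, a flavin monooxygenase of auxin synthesis, had 17.5, 16.3 and 16.7 CPM in irradiated PHYB-CFP/abcde against 4.75, 3.33 and 5.81 CPM in irradiated aBcde, while the dark libraries of both lines shared the range of 22.2 to 27.8 CPM. It fell in aBcde and was not called in PHYB-CFP/abcde. HAT2, an auxin-inducible homeodomain gene, behaved in the same way, with a difference of 1.37 ± 0.18 and an adjusted p of 2.44e-07.

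The other 10 called growth genes ranged from 1.03 (IAA1) to 3.25 (ACS8) on the log2 scale. Auxin response was represented by IAA29 (1.91), IAA19 (1.31) and the SAUR genes SAUR19, SAUR21 and SAUR22 (2.38, 1.73 and 2.14). ACS8 encodes an enzyme of ethylene synthesis, HLS1 (1.08) a regulator of the apical hook, ATHB2 (1.18) a homeodomain factor of the shade response and FHL (1.60) a factor of phyA import into the nucleus. The neighbouring SAUR19 to SAUR24 are close paralogs, and so are ST2A and ST2B, so that reads may be split between copies. The expansins EXPA1, EXPA4, EXPA5, EXPA8 and EXPA11 lay between −0.49 and 0.34 and none was called. SAUR20, SAUR23, SAUR24 and IAA6 had values of 1.12 to 2.02 without passing the test.

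**Figure D3:**
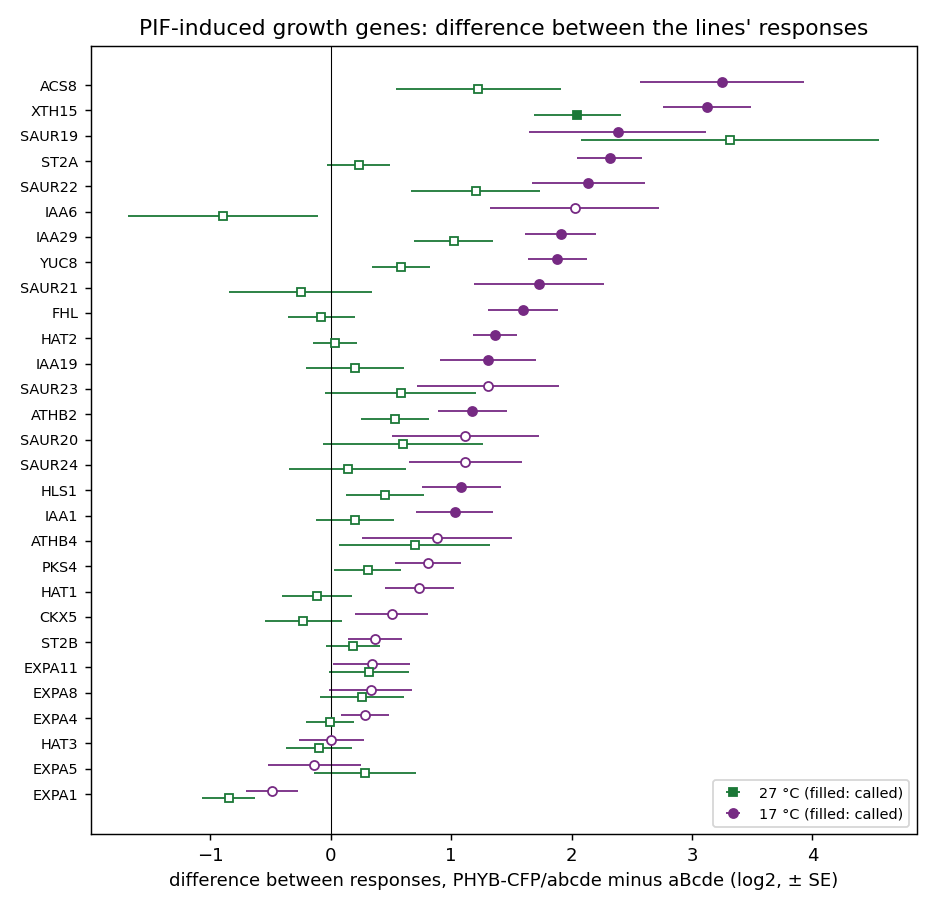
Difference between responses (log2, PHYB-CFP/abcde minus aBcde, ± SE) of the 29 tested PIF-induced growth genes at 17 °C (circles) and 27 °C (squares), filled where called. At 17 °C 14 genes were called, all positive, and at 27 °C 1 gene, XTH15, was.

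PIF genes and close relatives differed one by one. PIL1, a bHLH gene that phytochromes repress, had 13.6, 10.2 and 18.1 CPM in irradiated PHYB-CFP/abcde and 86.2, 88.3 and 85.0 CPM in dark PHYB-CFP/abcde, against 1.85, 2.93 and 1.63 CPM in irradiated aBcde and 93, 90 and 107 CPM in dark aBcde. The irradiated groups did not overlap, and the difference was 2.87 ± 0.37 with an adjusted p of 6.7e-08 (edgeR). HFR1, a bHLH protein that restrains PIFs, had 55.3, 48.8 and 50 CPM in irradiated PHYB-CFP/abcde against 17.3, 18.4 and 13.01 CPM in irradiated aBcde, and its difference was 1.27 ± 0.19. PIF4, the PIF of thermal growth, had 55.5, 46.0 and 60.8 CPM in irradiated PHYB-CFP/abcde and 19.2, 15.7 and 21.9 CPM in dark PHYB-CFP/abcde, against 30.6, 12.8 and 11.3 CPM in irradiated aBcde and 21.9, 21.6 and 23.3 CPM in dark aBcde. It rose in PHYB-CFP/abcde and was not called in aBcde, with a difference of 1.80 ± 0.32. PIF8 alone was called negative (−1.65 ± 0.40), since it rose in both lines and more in aBcde. Its call was lost without replicate 1 or without replicate 2 in every group. Of the 11 genes 3 were positive (27.3%, against 1.11% of all tested genes) and 1 negative (9.09%, against 1.3%), and PIF1, PIF3, PIF5 and PIF7 lay at 0.26, 0.26, 0.57 and −1.75 without passing the test.

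The promoters of 4 genes are shown because they stood among the 10 smallest p-values in their direction, XTH15 and PIL1 among the positive and RVE1 and THIC among the negative differences. Each is the 250 bases before the annotated start in TAIR10.1 from the RefSeq genome, written 5′ to 3′ on the gene's strand, at chr4:8138393-8138642 (minus), chr2:19297859-19298108 (minus), chr5:5692993-5693242 (minus) and chr2:12666685-12666934 (plus). Capitals mark matches on either strand to the G-box CACGTG, the I-box GATAAG or the evening element core ATATCT.
XTH15: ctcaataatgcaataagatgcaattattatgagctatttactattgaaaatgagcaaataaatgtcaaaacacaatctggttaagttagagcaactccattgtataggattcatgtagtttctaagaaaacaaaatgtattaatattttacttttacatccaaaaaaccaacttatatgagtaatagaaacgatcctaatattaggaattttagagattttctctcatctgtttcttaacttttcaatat
PIL1: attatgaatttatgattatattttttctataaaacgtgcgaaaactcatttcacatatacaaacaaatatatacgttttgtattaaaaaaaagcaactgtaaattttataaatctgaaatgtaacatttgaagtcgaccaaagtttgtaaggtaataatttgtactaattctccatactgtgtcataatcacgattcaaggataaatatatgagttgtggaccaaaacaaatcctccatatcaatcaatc
RVE1: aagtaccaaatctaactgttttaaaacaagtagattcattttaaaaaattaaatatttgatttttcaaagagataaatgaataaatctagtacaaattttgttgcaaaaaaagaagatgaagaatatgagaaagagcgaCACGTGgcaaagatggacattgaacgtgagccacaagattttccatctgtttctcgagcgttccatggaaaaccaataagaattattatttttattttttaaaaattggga
THIC: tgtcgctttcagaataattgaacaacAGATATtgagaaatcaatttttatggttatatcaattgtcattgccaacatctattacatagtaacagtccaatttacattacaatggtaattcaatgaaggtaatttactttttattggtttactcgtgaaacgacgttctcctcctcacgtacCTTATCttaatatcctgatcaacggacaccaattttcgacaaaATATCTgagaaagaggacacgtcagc
The windows of XTH15 and PIL1 held none of the 3 motifs, RVE1 held 1 G-box that begins 111 bases before the start, and THIC held 1 I-box at 69 bases and 2 evening element cores at 224 and 26 bases. A G-box was in 7.43% of 20662 windows of tested genes, in 9.13% of those with a positive and 11.9% of those with a negative difference, and in 2 of 29 growth genes (6.9%). The I-box was in 12.5% of all windows, 18.7% of the positive and 12.6% of the negative set, and the evening element core in 22.6%, 24.8% and 27.9%. The windows are short, and nothing about the factors follows from a match or its lack.

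The other genes with the smallest p-values among positive differences had varied roles. AT3G54510, annotated as an ERD4 family protein, had 7.73, 9.76 and 8.69 CPM in irradiated PHYB-CFP/abcde against 1.57, 1.32 and 1.03 CPM in irradiated aBcde, and its dark libraries overlapped between the lines. Its difference of 2.94 ± 0.28 had the smallest adjusted p of the positive genes, 8.99e-12 (edgeR). FAR1, a fatty acyl reductase, AT5G44440, a protein of the berberine bridge family, and AT5G02580 differed by 2.09, 2.43 and 2.34. AT5G44440 stood at 181, 174 and 169 CPM in dark PHYB-CFP/abcde against 298, 255 and 287 CPM in dark aBcde. ORP4C, an oxysterol-binding protein relative, had 117, 107 and 128 CPM in irradiated PHYB-CFP/abcde and 140, 112 and 156 CPM in dark PHYB-CFP/abcde, against 5.59, 4.54 and 4.42 CPM in irradiated aBcde and 25.1, 22.0 and 27.8 CPM in dark aBcde. It was therefore higher in PHYB-CFP/abcde in darkness too, by 2.44 ± 0.17, and it fell only in aBcde by the test. CYP96A5, a cytochrome P450, was named for its fall in PHYB-CFP/abcde instead. It had 1.39, 1.82 and 0.984 CPM in irradiated PHYB-CFP/abcde and no count in irradiated aBcde, from a mean of 18.55 CPM in dark aBcde. It was at least 7.7-fold higher in irradiated PHYB-CFP/abcde by a floor of 3 counts per library, at levels near that floor.

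Genes that rose in aBcde, and less or not by the test in PHYB-CFP/abcde, made up most of the negative differences. ORG1, a gene induced by the DOF factor OBP3, had 45.9, 38.6 and 50.4 CPM in irradiated PHYB-CFP/abcde and 43.9, 33.3 and 40.0 CPM in dark PHYB-CFP/abcde, against 160, 207 and 208 CPM in irradiated aBcde and 46.2, 47.9 and 46.4 CPM in dark aBcde. Only irradiated aBcde stood apart, and the difference was −1.83 ± 0.16 with an adjusted p of 3.76e-13 (edgeR). THIC, the thiamine pyrimidine synthase, had 232, 211 and 216 CPM in irradiated PHYB-CFP/abcde and 73.2, 73.8 and 71.7 CPM in dark PHYB-CFP/abcde, against 396, 550.2 and 508 CPM in irradiated aBcde and 69.5, 68.2 and 65.2 CPM in dark aBcde. It rose in both lines, less in PHYB-CFP/abcde by 1.25 ± 0.15 on the log2 scale. GLDP2, a glycine decarboxylase of photorespiration, THX, the chloroplast thioredoxin x, PPC2, a phosphoenolpyruvate carboxylase, and ACL differed by −1.19, −1.26, −1.11 and −1.82, and the call of PPC2 was lost without replicate 2 of irradiated aBcde. ATSPS4F, a sucrose phosphate synthase, was another case: it had 89.6, 76.3 and 95.5 CPM in irradiated PHYB-CFP/abcde and 92.2, 86.2 and 100.3 CPM in dark PHYB-CFP/abcde, against 71.7, 129 and 110 CPM in irradiated aBcde and 9.31, 5.89 and 10.2 CPM in dark aBcde. The irradiated groups overlapped, and the line difference lay in darkness (3.45 ± 0.30, adjusted p 3.75e-14). AT3G56360 was lower in PHYB-CFP/abcde in both conditions and fell only there, and AT1G69900 fell in PHYB-CFP/abcde and rose in aBcde.

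Genes of photosynthesis were read by list, against 5.6% of all tested genes that rose in PHYB-CFP/abcde and 12% in aBcde. Of 21 tested antenna genes, which encode chlorophyll-binding proteins, 20 rose in PHYB-CFP/abcde and 21 rose in aBcde, with none called between responses. Their median difference was −0.21, and it was 0.13 after quantile normalization, so no direction is given. LHCB1.1 reached 2124, 1653 and 2480 CPM in irradiated PHYB-CFP/abcde against 4541, 2827 and 3989 CPM in irradiated aBcde, from dark levels of at most 12.99 and 35.6 CPM. Of 27 photosystem and electron transport genes 18 rose in PHYB-CFP/abcde and 27 in aBcde, and all 27 differences were below 0 with a median of −0.79. PSBTN alone was called (−1.93 ± 0.59, adjusted p 0.0402), a call lost without any of 8 of the 12 libraries. Rubisco and Calvin cycle genes, which fix carbon, rose in 10 of 22 cases in PHYB-CFP/abcde and in 18 in aBcde. Their differences were all below 0, with a median of −1.19, and 5 were called negative (22.7%, against 1.3% of all tested genes).

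CP12-2, a regulator that binds 2 Calvin cycle enzymes, had 77.5, 71.9 and 84.3 CPM in irradiated PHYB-CFP/abcde and 17.5, 17.3 and 16.9 CPM in dark PHYB-CFP/abcde, against 180, 268 and 279 CPM in irradiated aBcde and 8.32, 14.5 and 11.7 CPM in dark aBcde. The irradiated groups did not overlap and the difference was −2.23 ± 0.40 with an adjusted p of 0.000166 (edgeR). The phosphoglycerate kinases PGK2 and PGK1 (−1.40 and −1.26), the ribose 5-phosphate isomerase RPI3 (−1.54) and Rubisco activase RCA (−1.29) were the others, and the close pair of PGK genes may share reads. The call of PGK1 was lost without replicate 2 or 3 of irradiated aBcde or replicate 2 of irradiated PHYB-CFP/abcde. The count of 5 was 8 without replicate 1 of irradiated aBcde, 3 without replicate 2 or 3 of irradiated aBcde or replicate 2 of irradiated PHYB-CFP/abcde, 1 without replicate 2 in every group, 11 without replicate 3 in every group, and 12 in a fit to the 12 libraries alone. Chloroplast regulators (10 genes, median −0.61) had no called member. CGA1, a GATA factor of greening, stood at −1.60 ± 0.53 with an adjusted p of 0.0618, and passed the test with DESeq2, the quantile-normalized fit, the 12 libraries alone and the covariate of left-out genes. Of 28 chlorophyll synthesis genes, PORA alone was called. PORA, the protochlorophyllide reductase of etiolated seedlings, had 665, 673 and 552 CPM in irradiated PHYB-CFP/abcde against 62.2, 15.8 and 24.0 CPM in irradiated aBcde, and its difference was 3.97 ± 0.62 with an adjusted p of 9.8e-06.

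Genes of carbon starvation are induced by darkness. Of 15 tested members 1 fell in PHYB-CFP/abcde and 7 fell in aBcde, against 3.19% and 6.4% of all tested genes. All 15 differences were above 0 with a median of 0.88, and 5 were called positive (33.3%, against 1.11%). DIN6, a glutamine-dependent asparagine synthetase, had 1066, 977 and 1241 CPM in irradiated PHYB-CFP/abcde and 1192, 1121 and 1221 CPM in dark PHYB-CFP/abcde, against 769, 186 and 139 CPM in irradiated aBcde and 1433, 1419 and 1270 CPM in dark aBcde. Replicate 1 of irradiated aBcde again stood apart from its partners. MCCA, MCCB and IVD, enzymes of leucine breakdown in mitochondria, differed by 1.41, 1.15 and 1.22, and the call of MCCB was lost without replicate 3 of irradiated aBcde. The count of 5 was 10 without replicate 1 of irradiated aBcde, 3 without replicate 3 of irradiated aBcde and 0 without replicate 2 in every group.

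**Figure D4:**
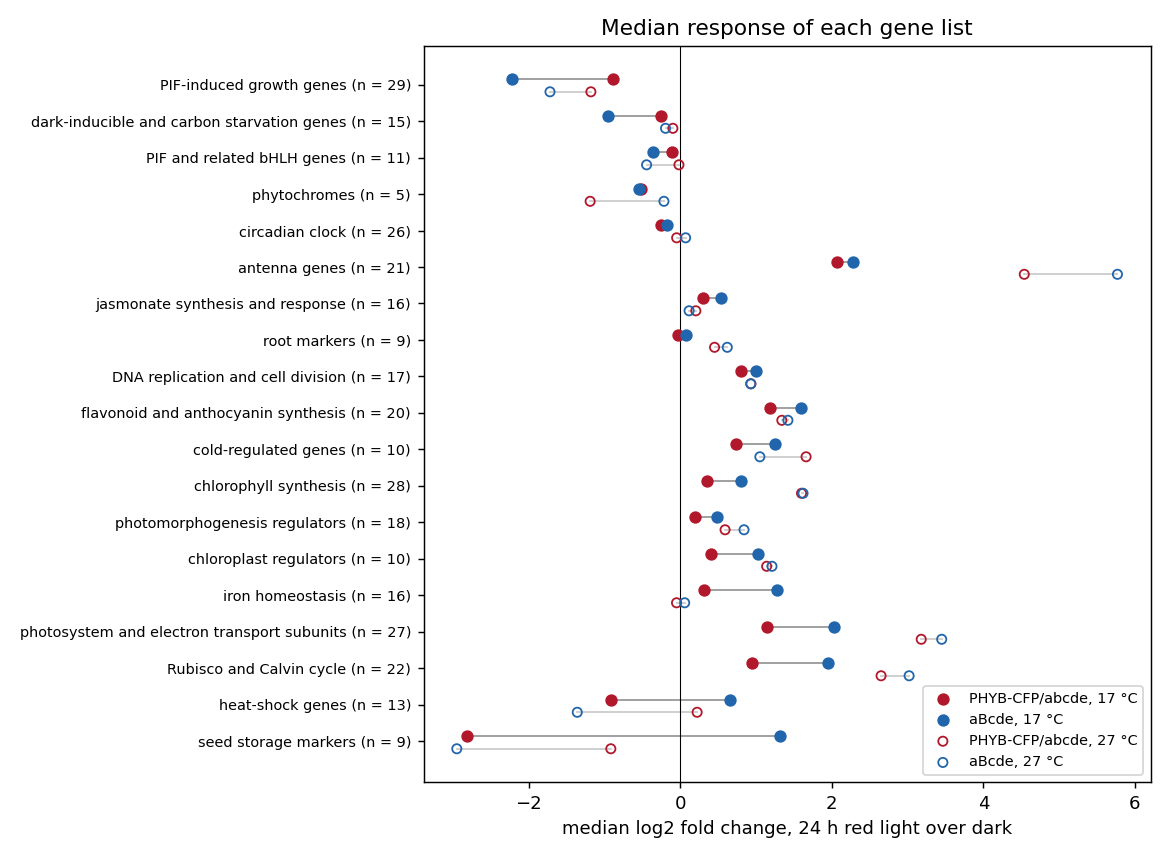
Median log2 fold change (24 h over dark) of each gene list in PHYB-CFP/abcde (red) and aBcde (blue), at 17 °C (filled) and 27 °C (open), with the number of tested genes in brackets and lists ordered by the median difference at 17 °C. At 17 °C PIF-induced growth genes stood at −0.88 in PHYB-CFP/abcde and −2.22 in aBcde, and Rubisco and Calvin cycle genes at 0.95 in PHYB-CFP/abcde and 1.95 in aBcde.

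Clock genes moved in both directions. Of 26 tested clock genes 1 was positive (3.85%, against 1.11% of all tested genes) and 4 were negative (15.4%, against 1.3%). RVE1, a Myb factor that links the clock with auxin, had 29.4, 26.1 and 31.0 CPM in irradiated PHYB-CFP/abcde and 23.62, 25.9 and 24.6 CPM in dark PHYB-CFP/abcde, against 73.3, 75.1 and 73.3 CPM in irradiated aBcde and 23.0, 25.4 and 26.7 CPM in dark aBcde. Only irradiated aBcde stood apart, and the difference was −1.34 ± 0.18 with an adjusted p of 3.1e-07 (edgeR). CCA1, a morning Myb factor, fell in PHYB-CFP/abcde to 10.3, 7.64 and 8.09 CPM, against 34.3, 24.4 and 30.5 CPM in irradiated aBcde, where it was not called. RVE8 and LHY, also morning genes, differed by −1.31 and −1.35, and GI, an evening gene, by 1.04, at 81.0, 90.2 and 70.0 CPM in irradiated PHYB-CFP/abcde and 39.6, 38.1 and 30.6 CPM in irradiated aBcde. The call of GI was lost without any of 5 of the 12 libraries, where its value was just under 2-fold and its adjusted p stayed under 0.05.

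Other lists had few or no called differences between responses. No gene of the flavonoid (20 tested), jasmonate (16), cold-regulated (10), cell division (17) or root marker (9) lists was called, and edgeR gave 3882 genes an unadjusted p under 0.05 over the whole table. Photomorphogenesis regulators (18) had 1 positive and 1 negative call, which were BBX23 (5.60 ± 1.02) and RUP2 (−1.89 ± 0.37). BBX23, a B-box factor, had 6.46, 4.11 and 3.01 CPM in irradiated PHYB-CFP/abcde against 0.224, 0 and 0 CPM in irradiated aBcde. The aBcde values are under the 0.311 CPM of 5 counts, and the BBX23 difference was 5.05 to 9.2 with libraries left out. The calls of BBX23 and RUP2 were both lost without replicate 2 in every group. Among iron genes (16) the transporter gene OPT3 was called (−1.21 ± 0.22), and it was also lower in dark PHYB-CFP/abcde by 1.17. After 24 h, 10 iron genes were called lower in PHYB-CFP/abcde than in aBcde (62.5%, against 2.54% of all tested genes). Only 1 was called higher, and the median line difference was −2.14. In darkness 3 were called lower and 2 higher, with a median of −0.63. In light 9 iron genes rose in aBcde (56.2%, against 12%), while in PHYB-CFP/abcde 1 rose and 2 fell. HSP22 was the called heat-shock gene of 13 (4.81 ± 1.23), at no more than 7.99 CPM in any of the 12 libraries, while the median of its list was −1.38. Runs of 3 neighbouring called genes occurred on chromosome 4, with AT4G10220, BBX23 and HSP22, and on chromosome 5, with AT5G57655, COL5 and AT5G57670, and all 6 were positive. The call of AT4G10220 was lost without any of 8 of the 12 libraries, that of COL5 without any of 5, that of HSP22 without replicate 2 of irradiated aBcde and that of AT5G57655 without replicate 3 of irradiated aBcde.

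Seed storage genes, fixed as markers of seed RNA, separated the lines in darkness. All 9 were called higher in dark PHYB-CFP/abcde, against 0.933% of all tested genes, with a median log2 difference of 5.31. Their summed level was 47.8, 82.0 and 18.6 CPM in irradiated PHYB-CFP/abcde and 338, 327 and 385 CPM in dark PHYB-CFP/abcde, against 20.7, 10.7 and 18.9 CPM in irradiated aBcde and 5.44, 12.3 and 7.73 CPM in dark aBcde. In darkness at 27 °C the sum was 98.2 to 937 CPM in PHYB-CFP/abcde and 250.3 to 730.4 CPM in aBcde. Of these genes 8 fell in PHYB-CFP/abcde, against 3.19% of all tested genes, none was called in aBcde, and OLEO1, an oil body protein, was called between responses (−5.26 ± 1.46), a call lost without replicate 1 or 3 of dark aBcde or replicate 3 of irradiated PHYB-CFP/abcde. The part of these transcripts in the other differences was not tested.

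A second measure moved with the line. Organelle, tRNA and rRNA genes, left out of the tests, took 3.53 ± 1.06% of counts in irradiated and 3.82 ± 0.53% in dark PHYB-CFP/abcde, against 1.13 ± 0.48% in irradiated and 1.26 ± 0.58% in dark aBcde (SD, n = 3 each). The lowest PHYB-CFP/abcde library, at 2.67%, was above the highest aBcde library, at 1.80%. With the log2 of this share as a covariate, an alternative added after the data had been seen, 545 genes had a called difference between responses, and 495 of the 499 were among them. Within each line the share was similar in light and darkness, so it nearly cancels in the difference between responses. This fit could therefore change little, and the part of the share in the differences was not tested.

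**Figure D5:**
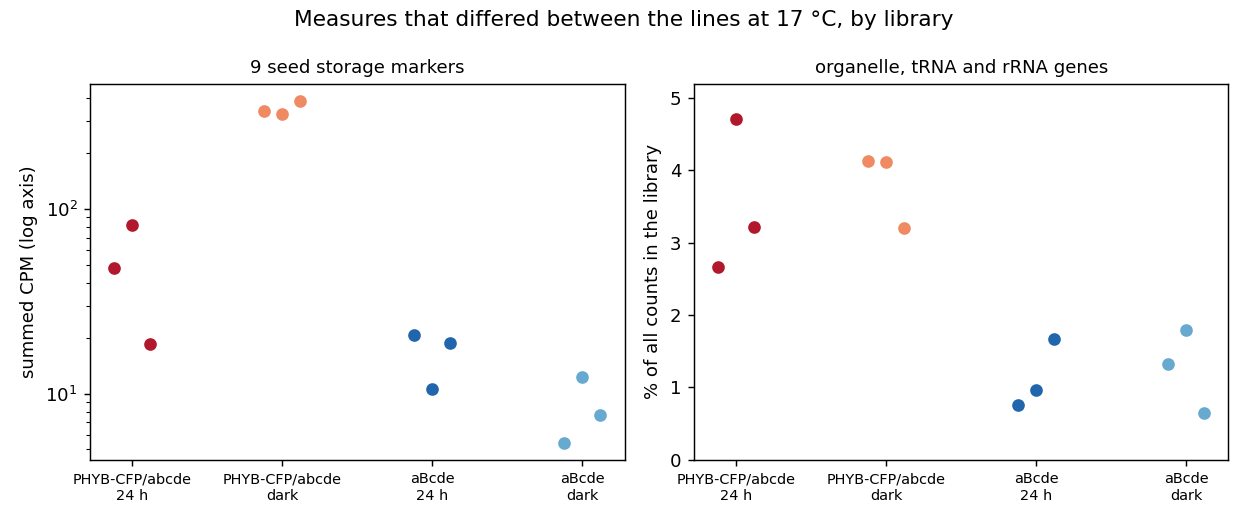
Summed CPM of the 9 seed storage markers (left, log axis) and percent of all counts on organelle, tRNA and rRNA genes (right) in each of the 12 libraries at 17 °C, with 1 point per library. Dark PHYB-CFP/abcde had 327 to 385 CPM of seed storage transcripts against 5.44 to 12.3 CPM in dark aBcde, and the shares on the right did not overlap between the lines.

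Among the smallest p-values in darkness, AT4G07825 had 96.2, 89.2 and 101 CPM in dark PHYB-CFP/abcde against 0.314, 0 and 0.903 CPM in dark aBcde, and AT2G05914, a long noncoding RNA, and AT4G05040, an ankyrin repeat protein, had the same form. In irradiated aBcde all 3 had no count, so that they were at least 341-fold, 331-fold and 92.3-fold higher in irradiated PHYB-CFP/abcde by a floor of 3 counts per library. AT4G04402 was the reverse, with 0, 0.405 and 0 CPM in dark PHYB-CFP/abcde against 43.4, 64.4 and 64.6 CPM in dark aBcde, and AT5G56730 and MSRB5 were lower in dark PHYB-CFP/abcde by 2.03 and 2.77. The dark comparison called 2.12% of genes on chromosome 4, 1.64% on chromosome 5 and 1.56% on chromosome 2, against 0.751% and 0.734% on chromosomes 1 and 3. Of the genes called in darkness at 17 °C, 83 of 193 higher and 29 of 73 lower ones were called in the same direction in darkness at 27 °C, where 263 genes were called (1.27%), 193 higher (0.933%) and 70 lower (0.338%).

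At 27 °C the lines' responses differed at few genes. There, 2565 genes were called in PHYB-CFP/abcde (12.4%) and 2999 in aBcde (14.5%). Of these, 1962 rose and 603 fell in PHYB-CFP/abcde (9.48% and 2.91%), and 2285 rose and 714 fell in aBcde (11% and 3.45%). The difference between responses was called for 18 genes at 27 °C (0.087%), 9 positive (0.0435%) and 9 negative (0.0435%), and 3 of them were also called in the same direction at 17 °C. These 3 were XTH15, FAR1 and AT5G44440, at 2.05, 1.67 and 1.28 on the log2 scale at 27 °C. The change of the difference with temperature, 17 °C minus 27 °C, was called for 62 genes (0.3%), 40 positive (0.193%) and 22 negative (0.106%), and 46 of these were also called in the same direction at 17 °C. Among positive genes the smallest p-values belonged to AT3G54510 (3.11 ± 0.37), ORP4C (1.88 ± 0.35) and ST2A (2.08 ± 0.37), and among negative genes to ORG1 (−1.93 ± 0.22), AT3G56360 (−1.63 ± 0.32) and AT1G69900 (−2.97 ± 0.55). ST2A averaged 43.1 CPM in irradiated PHYB-CFP/abcde and 32.3 CPM in irradiated aBcde at 27 °C. The count of 62 was 166 without replicate 1 of irradiated aBcde at 17 °C, 29 without replicate 2 or replicate 3 of that group, and 2 without replicate 2 in every group.

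PHYA, HFR1, HAT2, GI, PORA, MCCA and DIN6 also changed in this comparison, and PIL1, YUC8 and XTH15 did not pass its test. PHYA averaged 330.3 CPM in irradiated PHYB-CFP/abcde and 286 CPM in irradiated aBcde at 27 °C, and its difference there was 0.15 ± 0.20. PIL1 averaged 1.91 CPM in irradiated PHYB-CFP/abcde and 0.856 CPM in irradiated aBcde at 27 °C. The change of its difference with temperature was 2.13 ± 0.57 with an adjusted p of 0.0836 (edgeR). Over the growth list the median difference was 0.26 at 27 °C, and 3 of the 29 genes were called in the comparison of temperatures, all positive.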

How the data were processed

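Polyadenylated RNA of whole seedlings was sequenced, and the authors deposited raw read counts per gene for 90 libraries. Per their methods, reads were checked with FastQC 0.11.9, trimmed with Trimmomatic 0.39, mapped to TAIR10 with STAR 2.7.8a and counted with htseq-count 0.13.5. The strand setting is not given in the sources used here, so overlapping genes are less certain (among named genes AT4G10220, PIF1, PIF7, RCA, AT3G54510, AT2G05914, DIN6, MCCA, PGK1, RPI3, PHYE, XTH15, FAR1, ORP4C, THIC, RVE1, ATSPS4F, THX and OLEO1). Symbols and positions came from RefSeq's TAIR10.1 table, which matched 28009 of 28775 IDs.

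Before testing, 279 organelle genes and 627 genes of tRNA or rRNA were removed. A further filter asked for 5 or more counts in 25% of the libraries. edgeR 4.0.16 in R 4.3.3 (TMM, estimateDisp, glmQLFit, glmQLFTest) was fitted to all 90 libraries with 30 group means, 60 residual degrees of freedom and no replicate block, and p-values were adjusted by Benjamini and Hochberg over 20695 genes. Standard errors were obtained from the fold change and its F statistic. The fit was tested on simulated data. 15 genes of the 19 lists were below the filter.

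Named genes were the 5 phytochrome genes, the 10 smallest p-values in each direction of the difference, up to 4 called members per list (or the 2 with the smallest response p), the 3 smallest p-values each way in the other comparisons and runs of 3 called neighbours. Other genes were chosen after their values were seen. The samples, lists and rules were chosen with earlier results of these data known. Alternatives were DESeq2 1.42.0, RLE size factors, quantile-normalized log2 CPM in limma 3.58.1, other filters, the 12 libraries alone, a replicate block, left-out libraries, no fold threshold and a covariate.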

Additional observations from a re-analysis of the deposited data

Results flagged for a closer look

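The response to red light differed between the lines at 17 °C by the interaction test for 499 genes, and the difference between the lines differed between 17 and 27 °C for 62 genes.

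Named genes called in the comparison of 17 with 27 °C were each picked out by that test, and the values are log2 differences at 17 °C minus those at 27 °C. Positive values belonged to PHYD (5.12), PORA (3.64), AT3G54510 (3.11), ST2A (2.08), DIN6 (2), ORP4C (1.88), AT5G02580 (1.8), AT5G57670 (1.62), PHYA (1.4), MCCA (1.38), HFR1 (1.34), HAT2 (1.33), GI (1.22) and COL5 (1.04). Negative values belonged to THIC (−1.03), THX (−1.17), DGAT3 (−1.24), AT3G56360 (−1.63), ORG1 (−1.93), ATSPS4F (−2.76), AT1G69900 (−2.97) and OLEO1 (−7.45). The value of PHYD came with single libraries of 107 CPM (dark aBcde, 17 °C) and 587.5 CPM (irradiated aBcde, 27 °C) in groups whose other libraries were at 14.2 to 31.9 CPM. Single libraries of PHYB-CFP/abcde also stood apart, at 170.6 CPM (dark, 27 °C), 61.7 CPM (irradiated, 27 °C) and 44.2 CPM (dark, 17 °C). So did 1 of dark aBcde at 27 °C, at 47.9 CPM.

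Organelle, tRNA and rRNA genes, which entered no comparison, took a larger share of counts in PHYB-CFP/abcde than in aBcde at both temperatures. At 17 °C the mean share was 3.53% in irradiated and 3.82% in dark PHYB-CFP/abcde, against 1.13% and 1.26% in aBcde. At 27 °C it was 2.53% in irradiated and 5.22% in dark PHYB-CFP/abcde, against 1.00% and 1.69% in aBcde.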

How the results depend on the processing

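With libraries left out, the difference between responses was called for 54 to 832 genes (35 to 386 positive, 19 to 446 negative), the response of PHYB-CFP/abcde for 1328 to 1818, that of aBcde for 3076 to 4173, the lines in darkness for 120 to 266 and after 24 h for 497 to 1277, the change with temperature for 2 to 166 and the difference at 27 °C for 3 to 20. The lowest of the first range was without replicate 2 in every group and the highest without replicate 1 of irradiated aBcde. A fit to the 12 libraries alone called 793 differences, 490 negative. With no fold threshold the counts were 957 (512 positive, 445 negative), 5324, 9051 and 3148 for the difference, the PHYB-CFP/abcde response, the aBcde response and the lines after 24 h, and the falls of PHYB in light (−0.52 and −0.547) counted as called. DESeq2 called 114 genes for the change with temperature and 33 for the difference at 27 °C, where the quantile-normalized fit called 10. Across settings other than left-out libraries, at least 86.6% of the 499 genes were called again.

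Same-numbered libraries correlated in their deviations from group means by −0.0933 to 0.117, over 0.1 in 2 of 18 pairs, so the numbers were not taken as pairs. With a replicate block 475 differences were called at 17 °C and 9 at 27 °C, and the line differences in darkness and after 24 h could not be fitted. The median difference of the 5 phytochrome genes (0.136) turned to −0.011 without replicate 1 of dark aBcde and to −0.0533 without replicate 1 in every group, and was at most 0.303, without replicate 2 of irradiated aBcde. Counts of 5 in a library limit the precision of genes under about 0.311 CPM, such as HSP22 and OLEO1 in their low groups. A library left out leaves 2 in its group, and their spread was shared with all groups of the fit.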

Other observations

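After 1 h of red light at 17 °C, 154 genes had an adjusted p under 0.05 at any fold in PHYB-CFP/abcde (0.744% of those tested) and 4776 in aBcde (23.1%), and the difference between responses had one for 1335 (6.45%; edgeR). The 3 genes that follow were chosen after their values were seen. PIL1 had fallen in both lines, to a mean of 6.23 CPM in PHYB-CFP/abcde and 3.98 CPM in aBcde, and its log2 fold changes were −3.79 and −4.60. ST2A averaged 38.4 CPM after 1 h in PHYB-CFP/abcde and 78.1 CPM in aBcde, the reverse of the order after 24 h, and its difference between responses at 1 h was −0.91 with an adjusted p of 0.028 (edgeR). IAA29 fell by 3.08 in PHYB-CFP/abcde and by 3.11 in aBcde on the log2 scale after 1 h, and its level after 24 h averaged 21.5 CPM in PHYB-CFP/abcde and 6.44 CPM in aBcde. The responses at 1 h and 24 h share their dark libraries.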
